A study of Homo sapiens with 6 samples.

Results

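Eph receptors and their ephrin ligands were compared between M5, a subpopulation of human colorectal cancer cells which was derived from SW480 through in vivo selection for spread to the liver, and SW480 itself, the parental colorectal cancer cell line. The members were the probe sets, on Affymetrix U133 Plus 2.0 arrays, whose only gene symbol in the platform annotation is EPHA1, EPHA2, EPHA4, EPHB2, EPHB3, EPHB4, EFNA1, EFNA4, EFNB1 or EFNB2. The rule found 18 probe sets of 9 genes, out of 54675 probe sets in the table. EPHB2 has no probe set under its symbol in the annotation used and is not analysed here. Each population has 3 arrays, which the labels call biological replicates. The labels name no further treatment, and they give neither the host animal nor whether M5 is a single clone. The comparison asks which of these genes differ between the selected and the parental cells.

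Eph receptors are receptor tyrosine kinases that bind ephrins on the surface of neighbouring cells. Ephrin-A ligands are held in the membrane by a lipid anchor and ephrin-B ligands cross it, so that signals can run into both cells, often leading to repulsion and cell sorting. In the mouse intestine, EphB receptors are high at the base of the crypts, where Wnt signalling through beta-catenin and TCF factors keeps them on, and ephrin-B ligands are higher towards the differentiated cells. SW480 cells carry a truncated APC protein and have active Wnt signalling.

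No member passed the test between M5 and SW480 over all 6 arrays. The most even difference was in the receptor EPHA1, whose brightest probe set was lower on each M5 array than on any SW480 array, while another of its probe sets was higher on each. The ligands EFNB2 and EFNA4 were low on M5 replicates 2 and 3, while M5 replicate 1 had about the SW480 level. The receptors EPHB3 and EPHB4 and the ligand EFNA1 had estimates between -0.24 and 0.24 on the log2 scale. The 95% interval of every tested member probe set included both directions. For EPHB3 1438_at it was as wide as -1.65 to 1.16.

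The arrays differed in ways that bear on these genes. The 2% trimmed mean of the deposited signals was 27.2 to 67.7 on M5 arrays and 21.1 to 87.1 on SW480 arrays, and replicate 1 was the dimmest array of each population. All signals of genes are therefore given after quantile normalisation, which sets the 6 arrays to 1 common distribution. Over the 3277 brightest probe sets tested, M5 replicate 1 correlated more with SW480 replicate 1 (r = 0.954) than with M5 replicates 2 and 3 (0.935 and 0.933). M5 replicates 2 and 3 were unusually alike: over the same probe sets they correlated at r = 0.995, against 0.897 to 0.958 for the other pairs of arrays. Means and SDs therefore take their average as a single M5 value (n = 2 for M5), and for 2 values an SD says little. Fold changes, SE and p-values come from a fit that counts all 6 arrays. For the members, fold changes with M5 replicates 2 and 3 averaged to 1 sample are given beside them. The labels do not say that replicates came from separate cultures, so p-values measure only the spread between these arrays. The mean deposited signal of 3 probe sets for 18S ribosomal RNA was 1780, 190 and 281 on M5 replicates 1, 2 and 3 and 1910, 1880 and 90 on SW480 replicates 1, 2 and 3, so M5 replicates 2 and 3 and SW480 replicate 3 were low in this control. Of 11 markers of colon epithelium 7 had a probe set above the filter on low signals: EPCAM, CDH1, KRT8, KRT18, KRT19, KRT20 and VIL1. EPCAM had signals of 2239 to 2878 on M5 arrays and 2169 to 2521 on SW480 arrays, and KRT20, an intestinal keratin, 23.7 to 40.6 on M5 arrays and 42.8 to 57.6 on SW480 arrays. CDX1, CDX2, CDH17 and GPA33, which also mark intestinal epithelium, had none above the filter.

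A filter removed 40% of the probe sets, those of lowest mean signal, and 16 of the 18 member probe sets passed it. M5 was compared with SW480 by limma, a linear model fitted to all 32768 kept probe sets on log2(signal + 1.7), a scale that understates differences between low signals. P-values were adjusted over all of them with a threshold of 0.05. Limma called 0 of the 16 higher in M5 and 0 lower, where it called 0.0397% of all kept probe sets higher and 0.0336% lower. At an unadjusted p under 0.05 it also gave 0 of 16 in each direction, against 4.8% and 5.46% of all kept probe sets. The smallest adjusted p among the members was 0.499 in limma. With M5 replicates 2 and 3 averaged to 1 sample, limma again called 0 of 16 in each direction, against 0.0061% of all kept probe sets higher and 0.0214% lower, and the smallest adjusted p among the members was 0.896.

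The upstream sequences of 3 genes are shown because EFNB2 and EFNA4 were low on the same arrays and EPHA1 was lower on every M5 array by its brightest probe set, though higher on every M5 array by another. Each line gives the 250 bases before the annotated start, 5′ to 3′ on the gene's strand, from RefSeq on build GRCh38.p14. Capitals mark matches on either strand to CACCTG (the E2 box that SNAI and ZEB repressors can bind), to GGGCGG (the GC box of SP factors) and to CCAAT, with overlapping GC boxes merged.
EFNB2, chr13:106535663-106535912, minus strand: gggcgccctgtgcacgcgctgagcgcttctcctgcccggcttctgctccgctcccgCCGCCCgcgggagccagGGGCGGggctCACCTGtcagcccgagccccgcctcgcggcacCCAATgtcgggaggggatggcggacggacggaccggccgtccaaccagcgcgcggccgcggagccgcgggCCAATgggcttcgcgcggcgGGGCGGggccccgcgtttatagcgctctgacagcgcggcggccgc
EFNA4, chr1:155063490-155063739, plus strand: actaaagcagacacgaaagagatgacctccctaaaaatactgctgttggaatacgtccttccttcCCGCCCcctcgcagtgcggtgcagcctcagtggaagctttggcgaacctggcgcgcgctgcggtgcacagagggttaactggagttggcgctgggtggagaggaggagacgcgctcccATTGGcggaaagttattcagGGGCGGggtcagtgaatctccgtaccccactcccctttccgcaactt
EPHA1, chr7:143408857-143409106, minus strand: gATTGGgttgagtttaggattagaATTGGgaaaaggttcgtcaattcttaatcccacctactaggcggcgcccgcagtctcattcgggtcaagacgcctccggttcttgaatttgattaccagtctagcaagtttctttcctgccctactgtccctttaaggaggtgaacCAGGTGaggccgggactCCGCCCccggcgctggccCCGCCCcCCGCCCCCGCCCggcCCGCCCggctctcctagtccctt

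The EFNB2 and EPHA1 sequences each hold 1 match to CACCTG and the EFNA4 sequence holds 0. Of the 12 promoter entries of the 10 genes of the rule, 4 entries, from 3 genes, hold at least 1. In the same window, 17.5% of all 35116 RefSeq promoter entries do. The 4 entries include both of EPHB2, at 22710588-22710837 and 22710589-22710838 on chromosome 1, which are nearly the same sequence. EPHB2 has no signals here. GGGCGG occurs 3 times upstream of EFNB2, 2 times upstream of EFNA4 and 5 times upstream of EPHA1. It occurs in all 12 entries of the 10 genes of the rule, against 42.6% of all entries. CCAAT was found in 7 of the 12 entries, against 32.0% of all entries. CTTTGA, the core bound by TCF and LEF factors, was found in 1 of the 12 entries, that of EPHA2, against 11.2% of all entries. The median GC content of the 12 entries was 71.4%, against 58.0% for all entries. A match is only a run of letters, and its absence says nothing of binding elsewhere.

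EFNB2 encodes ephrin-B2, a transmembrane ligand of EPHB receptors that is also known from arterial endothelium. Its brighter probe set, 202668_at, measured 550, 305 and 308 units of normalised signal on M5 replicates 1, 2 and 3, against 596, 448 and 540 on SW480 replicates 1, 2 and 3. M5 replicates 2 and 3 were thus the lowest of the 6 arrays, while M5 replicate 1 lay within the SW480 range, so the populations overlapped. The mean was 428 ± 172 (SD, n = 2) in M5 and 528 ± 75 (SD, n = 3) in SW480. M5 over SW480 was -0.49 on the log2 scale, where the standard error (SE) was 0.25, with a 95% interval of -1.03 to 0.05 and a limma adjusted p of 0.538. Averaging M5 replicates 2 and 3 gave -0.35 (SE 0.29, limma adjusted p = 0.918).

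The second EFNB2 probe set, 202669_s_at, showed the same arrangement. Its signals were 253, 89.6 and 102 on M5 arrays and 258, 248 and 180 on SW480 arrays, in replicate order. Its log2 fold change was -0.76 (SE 0.36, interval -1.55 to 0.03, limma adjusted p = 0.502), or -0.53 with M5 replicates 2 and 3 averaged (SE 0.39, limma adjusted p = 0.904). Between the replicate 1 arrays alone the log2 differences of the 2 probe sets were -0.12 and -0.03, and between replicates 2 and 3 of the populations they were -0.68 and -1.13. The split by the 18S control divides the M5 arrays in the same way and moves only SW480 replicate 2. Its likeness on the M5 side was therefore fixed in advance. On arrays high in that control, M5 minus SW480 was 0.09 and 0 on the log2 scale, and on arrays low in it -0.81 and -0.9. With the 18S level as a block in the 6-array fit, the log2 fold change of 202668_at was -0.36 (SE 0.23, limma adjusted p = 0.66). That of 202669_s_at was -0.45 in the same fit (SE 0.25, limma adjusted p = 0.612), a smaller difference than the -0.76 without the block.

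EFNA4 encodes ephrin-A4, a lipid-anchored ligand of EPHA receptors. Its only probe set, 205107_s_at, had signals of 53.8, 15.2 and 20.8 on M5 arrays and 45.5, 47.8 and 51.1 on SW480 arrays, in replicate order. M5 replicate 1 was the highest of the 6 arrays and M5 replicates 2 and 3 the lowest, whereas the SW480 arrays lay close together. The mean was 35.9 ± 25.3 (SD, n = 2) in M5 and 48.2 ± 2.8 (SD, n = 3) in SW480. The log2 fold change was -0.85 (SE 0.44, interval -1.81 to 0.11, limma adjusted p = 0.542). It was -0.6 with M5 replicates 2 and 3 averaged (SE 0.47, limma adjusted p = 0.909) and -0.62 with the 18S level as a block (SE 0.42, limma adjusted p = 0.684). The log2 difference was 0.23 between the replicate 1 arrays and -1.39 between replicates 2 and 3, and it was 0.2 on arrays high and -1.44 on arrays low in the 18S control. Both splits divide the M5 arrays alike, so the latter is no separate check.

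When both replicate 1 arrays were left out, limma called 3 of 16 member probe sets lower in M5, against 4.23% of all kept probe sets, and 0 higher, against 3.63%. They were the 2 EFNB2 probe sets, with log2 fold changes of -0.68 (SE 0.16, adjusted p = 0.037) and -1.15 (SE 0.22, adjusted p = 0.0172), and EFNA4, with -1.46 (SE 0.32, adjusted p = 0.0283). In that fit M5 is represented only by replicates 2 and 3, the arrays that resemble each other most. With these averaged to 1 sample, 0 of 16 were called, against 0.851% of all kept probe sets lower and 0.51% higher. The limma adjusted p was then 0.344 and 0.155 for EFNB2 and 0.0957 for EFNA4, a fit in which the spread comes from the SW480 arrays alone. No single left-out array made a member pass in limma. The nearest were EFNB2 202669_s_at, with an adjusted p of 0.0544, and EFNA4, with 0.0954, both without M5 replicate 1.

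**Figure D1:**
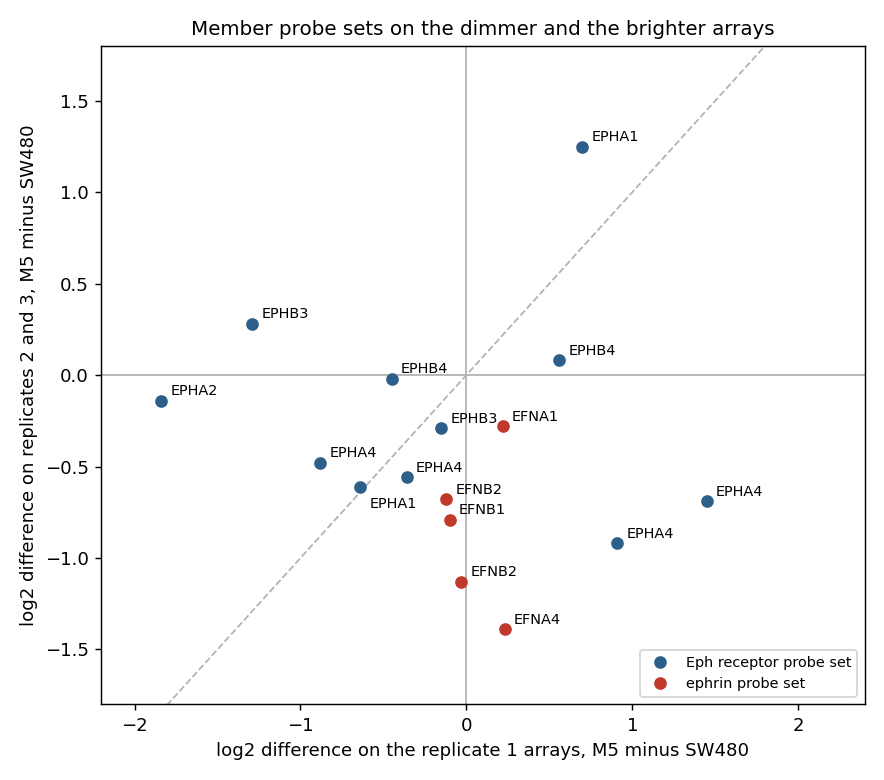
Each point is 1 of the 16 tested member probe sets. The horizontal axis gives the log2 difference, M5 minus SW480, on the replicate 1 arrays, the vertical axis the same difference between the means of replicates 2 and 3, and the dashed line marks equal values. The ephrin points lie near 0 on the horizontal axis, between -0.12 and 0.23, and between -0.28 and -1.39 on the vertical axis, whereas EPHA1 205977_s_at lies on the dashed line at -0.64 and -0.61.

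EFNA1 encodes ephrin-A1, a ligand of EPHA2 among others. Its signals were 73.9, 95.2 and 108 on M5 arrays and 63.1, 117 and 130 on SW480 arrays, in replicate order. Replicate 1 was the lowest array in both populations, and the log2 fold change was -0.11 (SE 0.32, interval -0.81 to 0.58, limma adjusted p = 0.934), or -0.19 with M5 replicates 2 and 3 averaged and -0.29 with the 18S level as a block. EFNB1 encodes ephrin-B1, a transmembrane ligand of EPHB receptors that is expressed from the X chromosome. It had signals of 11.1, 5.33 and 12.8 on M5 arrays and 12, 21 and 11.8 on SW480 arrays. Its lowest value was on M5 replicate 2 and its highest on SW480 replicate 2, and the other 4 arrays lay between 11.1 and 12.8. The log2 fold change was -0.56 (SE 0.51, interval -1.69 to 0.56, limma adjusted p = 0.754), between those of the EFNB2 probe sets but with a wider interval. With M5 replicates 2 and 3 averaged it was -0.51.

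On the RefSeq assembly EFNA4, EFNA3 and EFNA1 lie next to each other on chromosome 1, with 0 other protein-coding genes between them. Their fold changes were not alike. EFNA3, which encodes a further lipid-anchored ligand and is no member by the rule, had signals of 79, 64.2 and 67.1 on M5 arrays and 84, 54 and 35.9 on SW480 arrays, in replicate order. Its log2 fold change was 0.34 (SE 0.34, limma adjusted p = 0.775), beside -0.85 for EFNA4 and -0.11 for EFNA1. These values rest on 1 probe set per gene, and the differences between the genes were not tested.

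EPHA1, the first receptor of the family to be identified, was lower in M5 by its brightest probe set and higher by another. Probe set 205977_s_at measured 33.7, 36.8 and 41.7 units on M5 arrays, in replicate order, against 53.6, 61.8 and 59.9 on SW480 arrays. All M5 arrays lay below all SW480 arrays, which held for 1 of the 16 member probe sets and for 7.93% of all kept probe sets. The mean was 36.5 ± 3.95 (SD, n = 2) in M5 and 58.4 ± 4.29 (SD, n = 3) in SW480. M5 over SW480 came to -0.62 on the log2 scale, a fold of 0.65, with an SE of 0.29, an interval of -1.26 to 0.01 and a limma adjusted p of 0.499. Averaging M5 replicates 2 and 3 gave -0.66 (SE 0.36, limma adjusted p = 0.896). It was -0.64 on the replicate 1 arrays and -0.61 on replicates 2 and 3, and -0.74 and -0.59 on arrays high and low in the 18S control. Both splits divide the M5 arrays alike.

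The second EPHA1 probe set, 241482_at, went the other way. Its signals were 14.6, 21.7 and 9.23 on M5 arrays and 8.32, 5.58 and 4.53 on SW480 arrays, in replicate order. All M5 arrays lay above all SW480 arrays, again 1 of the 16 member probe sets, where 7.19% of all kept probe sets had that arrangement. The log2 fold change was 1.07 (SE 0.54, interval -0.12 to 2.25, limma adjusted p = 0.539), and 1.07 also with M5 replicates 2 and 3 averaged (SE 0.62, limma adjusted p = 0.899). The mean signal of this probe set stood at the 52.5 percentile of all probe sets, nearer the low end than that of 205977_s_at at the 76.0 percentile. The third EPHA1 probe set, 215804_at, had signals of at most 6.02 on M5 arrays and 3.75 on SW480 arrays and did not pass the filter. Direction for EPHA1 as a gene therefore depends on which of its probe sets is read.

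The genes whose log2 signals followed EPHA1 205977_s_at most closely over the 6 arrays were MGAT5 (Pearson r = 0.994), INO80D (0.991) and EHF (0.990), out of 14242 other genes read by their brightest kept probe set. MGAT5 encodes an N-glycan branching enzyme, INO80D a subunit of a chromatin remodelling complex and EHF an epithelial transcription factor. MGAT5 had signals of 54.1, 61.4 and 71.6 on M5 arrays and 90.6, 110.8 and 114.3 on SW480 arrays. EHF had 18.7, 35.2 and 45.3 on M5 arrays and 505.2, 1111.9 and 1225.6 on SW480 arrays, a far larger difference than that of EPHA1. The search was run for EPHA1 because its populations do not overlap, so genes that separate the populations tend to rank high. In all, 52 genes had r above 0.95, and with 6 arrays such likeness is only descriptive.

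**Figure D2:**
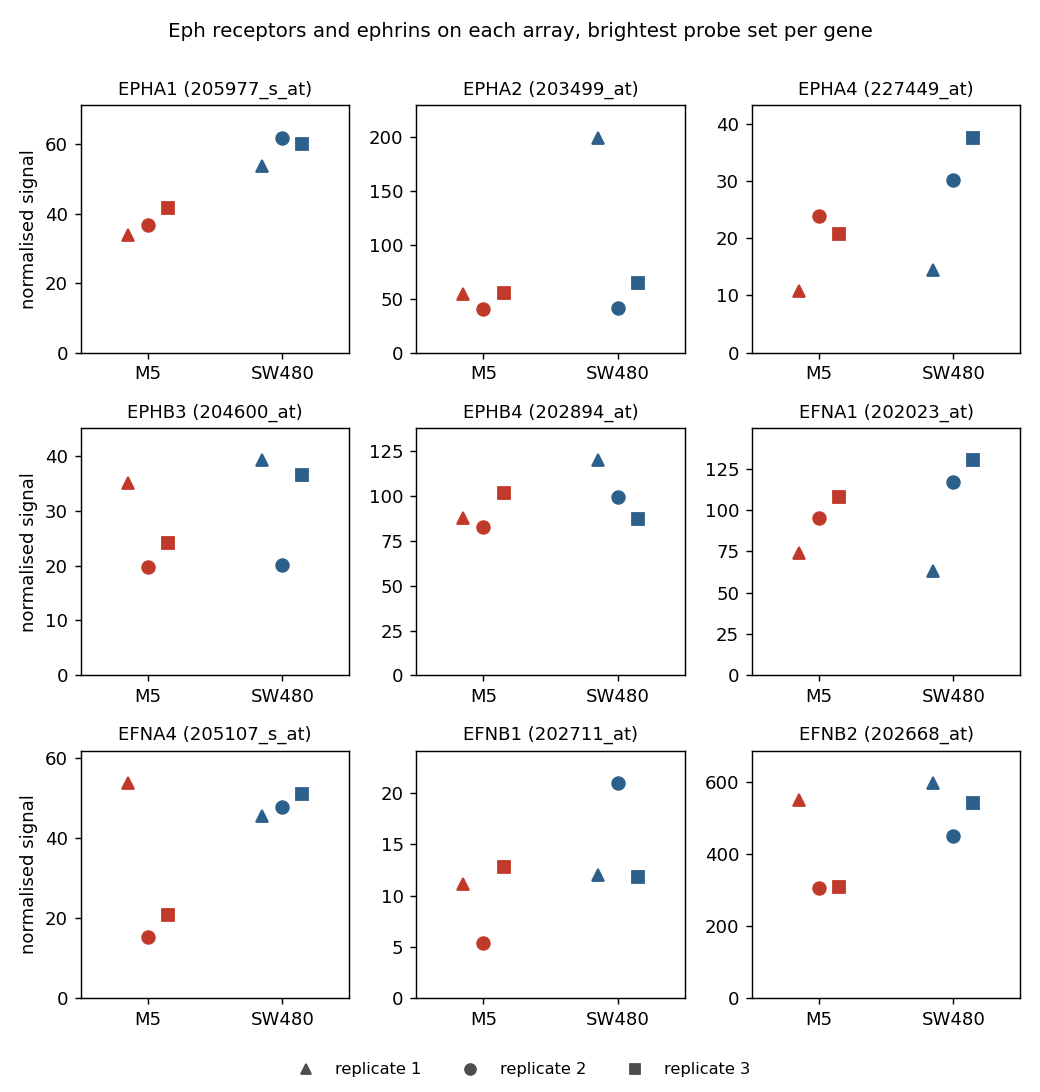
Normalised signal of each member gene on each array, read by its brightest kept probe set, with M5 on the left and SW480 on the right of each panel and 1 marker shape per replicate. EPHA1 is the only panel of the 9 in which the populations do not overlap, and in the EFNA4 and EFNB2 panels M5 replicates 2 and 3 lie apart from M5 replicate 1, which is at 53.8 and 550.

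EPHA2 encodes a receptor of ephrin-A1 that is common on epithelial and carcinoma cells. Its probe set 203499_at had signals of 54.4, 40 and 55.4 on M5 arrays and 199, 41.6 and 64.8 on SW480 arrays, in replicate order. A single array, SW480 replicate 1, stood far above the other 5, which lay between 40 and 64.8. The deposited signals, before normalisation, were 28.7, 46.2 and 64.7 on M5 arrays and 74.6, 44.7 and 106.8 on SW480 arrays. Among those, SW480 replicate 3 was the highest. Over 6 arrays the log2 fold change was -0.7 (SE 0.48, interval -1.76 to 0.35, limma adjusted p = 0.653), or -0.67 with M5 replicates 2 and 3 averaged. Without SW480 replicate 1 it was -0.07, so that the difference in EPHA2 rested on this array.

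EPHA4 encodes a receptor that binds ephrins of both classes. It has 5 probe sets, of which 4 passed the filter. The brightest, 227449_at, had signals of 10.8, 23.9 and 20.8 on M5 arrays and 14.4, 30.2 and 37.6 on SW480 arrays, in replicate order. Replicate 1 was lowest in both populations, which overlapped, and the log2 fold change was -0.49 (SE 0.47, interval -1.52 to 0.53, limma adjusted p = 0.762). Averaging M5 replicates 2 and 3 gave -0.65. The other 3 kept probe sets gave -0.61, -0.31 and 0.02, with SE of 0.54, 0.7 and 0.81, or -0.78, -0.15 and -0.01 with M5 replicates 2 and 3 averaged. For 206114_at, the last of these, the log2 difference was 1.45 on the replicate 1 arrays and -0.69 on replicates 2 and 3. Signals of the 4 kept EPHA4 probe sets ranged from 0.967 to 37.6, in the range where the table holds no detection calls to separate signal from background.

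EPHB3 and EPHB4 encode receptors of ephrin-B ligands, and EPHB4 is the main partner of ephrin-B2 in blood vessels. EPHB3 probe set 204600_at had signals of 35.1, 19.8 and 24.2 on M5 arrays and 39.2, 20.1 and 36.5 on SW480 arrays, in replicate order. The populations overlapped and the log2 fold change was -0.24 (SE 0.39, interval -1.11 to 0.62, limma adjusted p = 0.871). The other EPHB3 probe set, 1438_at, also gave -0.24 (SE 0.64), with -1.29 on the replicate 1 arrays and 0.28 on replicates 2 and 3. With M5 replicates 2 and 3 averaged the EPHB3 probe sets gave -0.14 and -0.56 on the log2 scale.

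EPHB4 probe set 202894_at had signals of 87.7, 82.6 and 102 on M5 arrays and 120, 99.7 and 87.4 on SW480 arrays, in replicate order. All but SW480 replicate 1 lay within 82.6 to 102. The log2 fold change was -0.17 (SE 0.25, interval -0.72 to 0.39, limma adjusted p = 0.863). The other EPHB4 probe set, 216680_s_at, gave 0.24 (SE 0.33, interval -0.48 to 0.96), so the direction differed between the probe sets and both intervals include 0. With M5 replicates 2 and 3 averaged the EPHB4 probe sets gave -0.18 and 0.29.

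The members had a median log2 fold change of -0.4 over the 16 kept probe sets, against -0.01 over all 32768. The fold change was below 0 for 13 of the 16, against 50.9% of all kept probe sets. Read by the brightest probe set, 9 of 9 member genes were below 0, against 50.7% of 14243 genes. Several probe sets share a gene, all share the same 6 arrays, and none of the 9 genes passed singly, so the count is a description. By the brightest probe set, the sign held for EFNA1 in 18 of 21 alternative settings, and for each of the other 8 genes in every setting that tested it. Other probe sets were less steady: it held for EPHB3 1438_at in 15 of 19 settings. For EPHA4 it held in 8 of 17 for 206114_at and in 18 of 19 for 228948_at. EPHA1 241482_at and EPHB4 216680_s_at stayed above 0 in every setting that tested them.

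**Figure D3:**
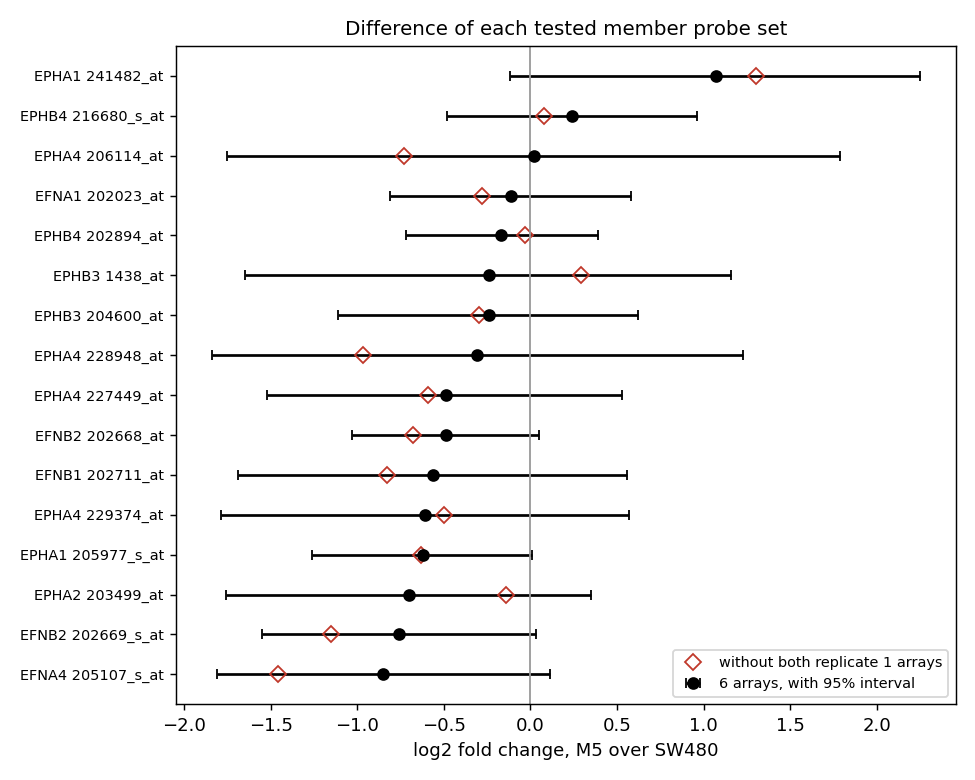
Log2 fold change of M5 over SW480 for the 16 kept member probe sets. Filled points with bars give the fit to 6 arrays with its 95% interval, and open diamonds the fit without both replicate 1 arrays. Every bar includes 0, and the diamonds of EFNA4 and EFNB2 lie farther below 0, at -1.46, -1.15 and -0.68.

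Of the 12 other Eph receptors and ephrins, 8 had a kept probe set and limma called 0 of these higher and 0 lower, also at an unadjusted p under 0.05. Their median log2 fold change was 0.02, with 4 below 0 and 4 above. The largest was EPHA8, with 0.87 (SE 0.61, limma adjusted p = 0.659), and it rested on the dim arrays: the difference was 2.73 on replicate 1 and -0.05 on replicates 2 and 3. EPHB6, a receptor that lacks kinase activity, had 0.17 (SE 0.36), EPHA10 0.08 (SE 0.37) and EFNA2 -0.03 (SE 0.34). EPHA5, EFNA5 and EFNB3 had -0.31, -0.33 and -0.14. All 8 genes were read by their brightest kept probe set, out of 11 kept. The other kept EFNA2 probe set was higher on every M5 array, at 6.3, 18.9 and 8 against 2.7, 5.9 and 4.1. Those of EFNA5 (10.1, 14.8 and 3.8 against 1.6, 2.7 and 9) and EFNB3 (14.2, 9.2 and 2.4 against 3.8, 6.3 and 2.9) overlapped. Fold changes of these further probe sets are not given here, so direction for the 3 genes rests on the probe set read. The 4 genes EPHA3, EPHA6, EPHA7 and EPHB1, several of them known from the nervous system, had no probe set above the filter.

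Eph receptors act on the cytoskeleton through adaptors, Src family kinases and small GTPases. Of 48 genes listed for this signalling, 42 had a kept probe set, and limma called 0 higher and 0 lower over 6 arrays. At an unadjusted p under 0.05 it gave 1 higher, RHOA, and 5 lower, against 5.47% higher and 6.28% lower of all genes. The median log2 fold change was -0.07, with 24 of the 42 below 0, against -0.01 and 50.7% for all genes. All M5 arrays lay above all SW480 arrays for 1 of the 42 and below them for 4, against 7.64% and 8.45% of all genes.

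RHOA, the GTPase that drives contraction after repulsive Eph signals, had signals of 4621, 4422 and 4447 on M5 arrays and 3307, 3481 and 3217 on SW480 arrays, in replicate order. All M5 arrays were higher, and the arrays of each population lay close together. It differed by 0.43 on the log2 scale (SE 0.12, limma adjusted p = 0.303). ROCK2, a kinase that RHOA activates, had signals of 181.5, 131.9 and 112.8 on M5 arrays and 211.8, 204.8 and 288.4 on SW480 arrays, all lower in M5. Its log2 fold change was -0.73 (SE 0.25, limma adjusted p = 0.391).

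WASL, an activator of actin branching, and FYN, a Src family kinase, were also lower on each M5 array than on any SW480 array. WASL had signals of 227.2, 212.1 and 176.5 on M5 arrays and 349.5, 232 and 418.5 on SW480 arrays, and its difference was -0.66 on the log2 scale (SE 0.25, limma adjusted p = 0.424). FYN had signals of 69.8, 58.7 and 31 on M5 arrays and 113.6, 90.6 and 77.2 on SW480 arrays, and its difference was -0.86 on the log2 scale (SE 0.34, limma adjusted p = 0.444). TIAM1, an exchange factor for RAC1, and PTK2, the focal adhesion kinase, overlapped between the populations. Their differences were -0.63 (limma adjusted p = 0.451) and -0.57 (limma adjusted p = 0.466) on the log2 scale.

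TIAM1 and PTK2 resembled EFNB2 and EFNA4 in that the difference lay on replicates 2 and 3. TIAM1 differed by 0.06 on the replicate 1 arrays and by -0.98 on replicates 2 and 3, and PTK2 by 0.2 and -0.96. Without both replicate 1 arrays, limma called 3 of 41 signalling genes lower, ROCK2, TIAM1 and PTK2, against 5.76% of all genes, and 1 higher, ACP1, against 4.5%. ACP1 encodes a phosphatase that acts on Eph receptors. With M5 replicates 2 and 3 averaged to 1 sample, their limma adjusted p lay between 0.158 and 0.36.

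**Figure D4:**
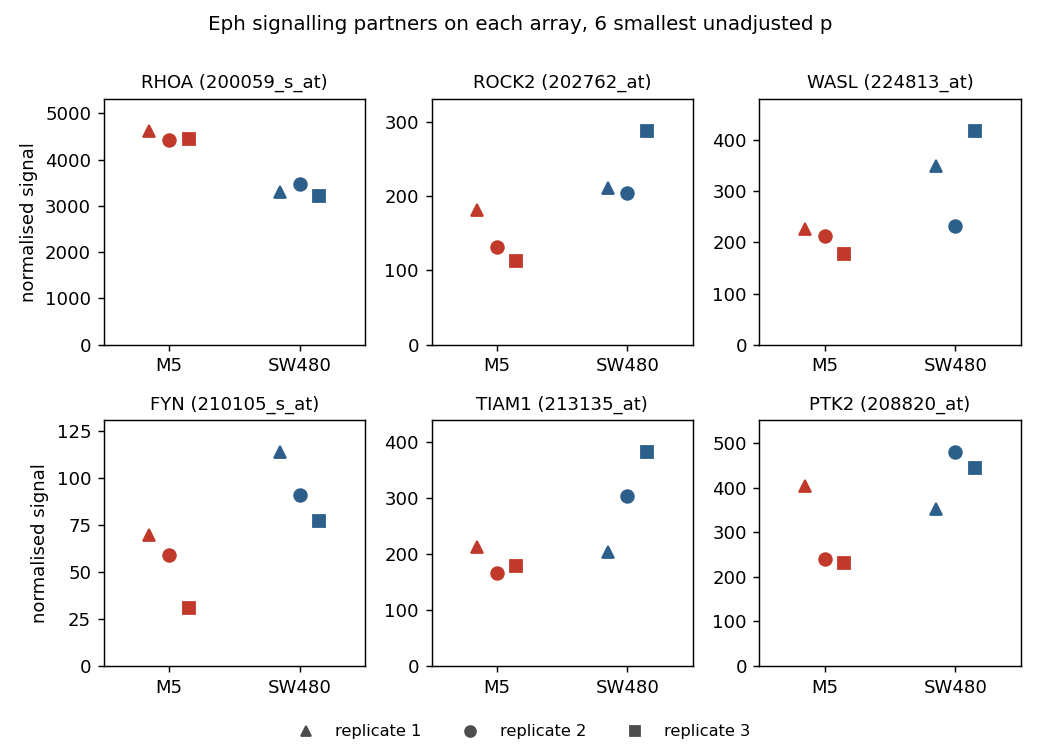
Normalised signal of the 6 Eph signalling genes with the smallest unadjusted p on each array, M5 on the left and SW480 on the right of each panel, 1 marker shape per replicate. RHOA is higher on every M5 array, at 4422 to 4621 against 3217 to 3481, and ROCK2, WASL and FYN are lower on every M5 array.

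Wnt targets of the intestinal crypt were read beside the EphB receptors, which belong to that programme in the mouse. Of 13 listed genes 9 had a kept probe set, and limma called 0 higher and 0 lower over 6 arrays, or 0 and 2 at an unadjusted p under 0.05, against 5.47% and 6.28% of all genes. Their median log2 fold change was -0.52, with 8 of 9 below 0, against -0.01 and 50.7% for all genes. AXIN2, a feedback inhibitor of the pathway, had signals of 19.8, 29.8 and 31.8 on M5 arrays and 30.7, 85.7 and 132.2 on SW480 arrays. Its highest M5 array lay just above its lowest SW480 array, and the log2 fold change was -1.36 (SE 0.48, limma adjusted p = 0.398). SP5, a transcription factor gene, had -1.51 (SE 0.65, limma adjusted p = 0.466). Its signals were low, at 6, 8.9 and 1.1 on M5 arrays and 14.6, 26.2 and 10.2 on SW480 arrays. CD44, an adhesion receptor gene, had -0.34 (SE 0.19, limma adjusted p = 0.571) and ZNRF3, which removes Wnt receptors, -0.52 (SE 0.32, limma adjusted p = 0.613). The gene above 0 was RNF43, with 0.32 (SE 0.4, limma adjusted p = 0.828). NOTUM, NKD1 and PROX1 also had low signals, between 1.4 and 27.5. Without both replicate 1 arrays, limma called 2 of the 9 lower, against 5.76% of all genes, and 0 higher, against 4.5%. They were AXIN2, with -1.78 on the log2 scale (limma adjusted p = 0.00845), and CD44, with -0.63 (limma adjusted p = 0.0175). Neither passed in that fit with M5 replicates 2 and 3 averaged (limma adjusted p = 0.0556 and 0.257). EPHB3 had -0.24 by both of its probe sets, beside these values, and the difference between EPHB3 and the list was not tested.

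Since EFNB2 and EPHB4 are also endothelial genes, markers of other cells were read on the same arrays. The sample titles name SW480 cells or M5 cells and no other cell type. In bulk RNA, fewer cells of a type and less RNA per cell cannot be told apart. At an unadjusted p under 0.05 the shares of all genes were 5.47% higher and 6.28% lower. The summed signal of 8 endothelial markers was 41.1 to 81.6 on M5 arrays and 34.1 to 60.9 on SW480 arrays. Limma called 0 of the 4 kept, or 1 higher at an unadjusted p under 0.05, ESAM, an endothelial junction gene, with 1.6 on the log2 scale (SE 0.7, limma adjusted p = 0.469). ESAM signals were low, at 10.4, 24.9 and 12.3 on M5 arrays and 1.3, 11.9 and 2.4 on SW480 arrays, and overlapped. PECAM1, TIE1 and CLDN5 went the other way, with -0.59, -0.45 and -0.06. The median of the 4 kept was -0.26. CDH5, VWF, KDR and TEK, further endothelial genes, had no probe set above the filter. None of the 8 was listed at 0 on all arrays.

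The summed signal of 8 fibroblast markers was 179 to 224 on M5 arrays and 228 to 357 on SW480 arrays, lower on each M5 array. The median log2 fold change of the 6 kept was -0.04, with 3 below 0 and 3 above. DCN, THY1 and PDGFRB had 0.63, 0.54 and 0.14, and COL1A1 and COL1A2 had -0.23 each, all with overlapping populations. Limma called 0 of the 6 kept, or 1 lower at an unadjusted p under 0.05. This was the collagen gene COL3A1, with signals of 81.2, 66.5 and 44.9 on M5 arrays and 222.6, 104.4 and 168.2 on SW480 arrays, lower on every M5 array. Its log2 fold change was -1.31 (SE 0.33, limma adjusted p = 0.286). Without both replicate 1 arrays it was called, with -1.27 (limma adjusted p = 0.0367), but not when M5 replicates 2 and 3 were averaged in that fit (limma adjusted p = 0.155).

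The sum of 7 hepatocyte markers was 82.5 to 367 on M5 arrays and 76 to 310 on SW480 arrays, and limma called 0 of the 3 kept, or 1 higher at an unadjusted p under 0.05. This was TTR, which encodes the plasma carrier transthyretin. Its signals were 195.6, 73 and 5.7 on M5 arrays and 5.2, 1.7 and 1.4 on SW480 arrays, in replicate order. All M5 arrays lay above all SW480 arrays, with M5 replicate 3 close to SW480 replicate 1. The log2 fold change was 3.52 (SE 0.97, limma adjusted p = 0.304), or 3.01 without both replicate 1 arrays (limma adjusted p = 0.127). SERPINA1 and APOA1, the other kept hepatocyte markers, had -0.47 and 0.02 on the log2 scale, and their populations overlapped. ALB, the albumin gene, APOB, TF and AHSG had no probe set above the filter. The sum of 5 leukocyte markers was 22.1 to 51 on M5 arrays and 29 to 63.6 on SW480 arrays, with 0 of 3 kept called, also at an unadjusted p under 0.05.

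Among the 7 kept markers of colon epithelium limma called 0, or 1 higher and 0 lower at an unadjusted p under 0.05. The keratin gene KRT19 had 0.76 on the log2 scale (SE 0.31, limma adjusted p = 0.451), and the populations overlapped. Without both replicate 1 arrays it was called, with 1.19 (limma adjusted p = 0.0069), but not when M5 replicates 2 and 3 were averaged in that fit (limma adjusted p = 0.0735). KRT20 was lower on every M5 array, with -0.49 on the log2 scale (SE 0.34, limma adjusted p = 0.655). The other 5, EPCAM, CDH1, KRT8, KRT18 and VIL1, lay between -0.18 and 0.22. Whether any other cell type was present or contributed to the values of the members was not tested.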

How the data were processed

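RNA of 3 M5 and 3 SW480 samples was measured on 1 Affymetrix array each. The authors deposited linear signal intensities per probe set, made with GCOS 1.4 per the submitters' processing notes. How GCOS was set, whether it scaled the arrays and which probe sets it detected is not stated in these sources. Column medians were 6.7, 12.4 and 12.5 for M5 and 5.8, 9.9 and 13.6 for SW480 replicates 1, 2 and 3.

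The trimmed means differed by up to 4.12 times, so the arrays were quantile normalised and log2(signal + 1.7) was taken, 1.7 being the 20th percentile of all values. The 62 control probe sets and the 40% of the rest with the lowest mean log2 value were left out. Limma 3.58.1 (R 4.3.3; lmFit, eBayes with intensity trend) compared M5 with SW480, two-sided, with Benjamini-Hochberg adjustment over 32768 probe sets. Symbols came from the platform annotation of 41091 probe sets with 1 symbol, checked by gene ID against RefSeq (41037 matched, 0 changed). A gene in a list was read by its brightest kept probe set. Of the listed signalling genes 4 are not analysed here. Precision is limited by the number of arrays.

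The members, the lists, the tests and the rule for named genes (all members; other family members with a kept probe set; the 6 signalling genes and 4 Wnt targets with the smallest p; the 3 genes most like a member whose populations do not overlap) were chosen with earlier results of these data known. The cell type markers and the further Wnt targets given singly were chosen after their values were seen. In all, 21 alternatives were tried. Figures were drawn with matplotlib 3.10.9.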

Additional observations from a re-analysis of the deposited data

How the results depend on the processing

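Over 6 arrays limma called 0 member probe sets higher and 0 lower, and 0 other family or signalling genes in either direction. Of the 21 alternatives, 2 changed these counts. Leaving out both arrays of replicate 1 gave 3 member probe sets lower (both of EFNB2, and EFNA4), 1 other family or signalling gene higher and 3 lower. Array weights in limma gave 2 member probe sets lower (EFNB2 202669_s_at and EFNA4), 1 other gene higher and 3 lower. With these weights limma called 1082 of all 32768 kept probe sets lower and 845 higher, against 11 and 13 in the main fit. Without replicate 1, M5 rests on replicates 2 and 3, and with these averaged (a setting added after seeing the data) the counts were 0 again. Leaving out 1 array in turn gave 0 to 0 calls of members. The median log2 fold change of the members lay between -0.54 and -0.27 over the alternatives, against -0.4. No scaling and median centring gave -0.32 and -0.43, with the median of all probe sets at 0.06 and -0.06. The replicate block gave 0 calls of members and a median of -0.4. The numbers gave no clear pairing by this measure: same-numbered arrays deviated from their group means with r of 0.11, 0.02 and 0.07. Over the brightest probe sets, however, M5 replicate 1 was closer to SW480 replicate 1 than to the other M5 arrays. The 18S level as a block took EFNB2 202669_s_at to -0.45, against -0.76, and called 0 members. Averaging M5 replicates 2 and 3 took EFNA4 to -0.6, against -0.85, and the smallest adjusted p of a member to 0.896. Without detection calls, low signals such as those of EPHA4, EFNB1 and EPHA1 241482_at set no firm fold.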
